A study of Mus musculus with 14 samples.

Results

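The genes described here are 10 of the 14217 genes with values in the deposited table. They comprise the inflammasome sensors Nlrp3, Nlrp1a and Nlrp1b, the adaptor Pycard, the caspases Casp1 and Casp4, and the cytokines Il1a, Il1b and Il18. The remaining member is Nlrp1c, a neighbouring copy of Nlrp1a and Nlrp1b that RefSeq lists as a pseudogene. All members were taken by symbol, written in the table as NLRP3, NLRP1A, NLRP1B, NLRP1C, PYCARD, CASP1, CASP4, IL1A, IL1B and IL18, and all 10 were found. For a symbol on several rows, the most abundant row was used. Only Nlrp1b had more than 1 row, and its 2 rows held identical values.

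The libraries came from microglia, the resident macrophages of the brain. The GF group held 7 libraries from C57BL/6 mice raised germ-free, that is, without microorganisms. The SPF group held 7 libraries from C57BL/6 mice kept specific-pathogen-free, which carry ordinary commensal microbes. All mice were 6 to 8 weeks old and received no treatment, and the comparison asks how microglia differ in the absence of a microbiota. Microglia were separated on a density gradient and sorted as CD11b+ cells with low CD45, at 1000 cells per brain in the series design, and sequencing covered mRNA 3' ends. The labels do not state that the libraries came from separate animals, so the p-values reflect only how these samples vary, which may in part be technical. In such bulk samples, fewer cells of a type and less RNA per cell cannot be told apart.

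An inflammasome is a cytosolic protein complex that forms when a sensor detects a microbial product or cell damage. The sensor recruits the adaptor ASC, encoded by Pycard, which gathers and activates caspase-1. Caspase-1 cuts the precursors of interleukin-1 beta and interleukin-18 into secreted cytokines and cuts gasdermin D, whose pores kill the cell. Interleukin-1 alpha acts on the same receptor as interleukin-1 beta and does not need caspase-1 for activity. In macrophages the sensor Nlrp3 and the interleukin-1 genes are induced by microbial signals through NF-kB, a step called priming.

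Values are normalized counts, the authors' read signal per transcript, and a step common to most values of a library gives the worth of 1 read. Depth was 680082 to 1190253 read equivalents per library in GF and 907568 to 1634679 in SPF (exact permutation p = 0.0542). The share of genes at 0 averaged 25.1% in GF and 21.9% in SPF (exact permutation p = 0.00175). All 10 microglial markers had rows, and their summed level was 47287 to 53957 normalized counts in GF and 43041 to 50265 in SPF. The sum hides changes in both directions: of the 10, 2 rose and 3 fell in GF (limma adjusted p under 0.05). Over all genes tested, 3.68% rose and 3.07% fell. Neutrophil markers, a possible source of Il1b, had rows for 4 of 10 genes and summed to at most 10.1 in GF and 1.18 in SPF. Monocyte markers had rows for 5 of 8 genes and summed to at most 10.9 in GF and 13.5 in SPF. Markers of border macrophages had rows for 4 of 7 genes and summed to 0 to 21.8 in GF and 2.83 to 40.2 in SPF (exact permutation p = 0.0321, 0.192 adjusted over 12 marker sums). Endothelial markers summed to 17.4 to 71.3 in GF and 57.5 to 89.4 in SPF (exact permutation p = 0.0175, adjusted 0.192), with the defining marker Cldn5 at 0 in every library. Erythroid markers summed to 3652 in GF 6, the shallowest library, and to at most 94.9 in the other GF libraries and 113 in SPF. The part of these cells in the differences described here was not tested. Without GF 1, GF 6 and SPF 2 together, Nlrp3, Nlrp1c and Il1a still passed and Nlrp1b did not (limma adjusted p = 0.112).

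Of the 10 genes, 8 were abundant enough to test, averaging 7.22 normalized counts or more, and Casp1 and Il1b were not. In GF microglia 4 of the 8 fell, namely Nlrp3, Nlrp1b, Nlrp1c and Il1a, and 0 rose (limma, Benjamini-Hochberg adjusted p under 0.05 over 8822 genes). Over all genes tested, 3.07% fell and 3.68% rose. All 10 members had a lower mean in GF, though by only 1.14% for Nlrp1a, 6.11% for Pycard and 9.28% for Il1b. For none of the 10 did every GF library lie below every SPF library, which held for 0.895% of genes tested. Among the 4959 tested genes with a mean under 50 normalized counts, where all tested members but Nlrp3 and Pycard lay, 2.36% fell and 0.565% rose. The median log2 difference, GF minus SPF, was -0.96 over the 8 members tested, against -0.02 over all genes tested and -0.11 over those with a mean under 50. With every library scaled to the same total, 4.86% of genes fell and 2.42% rose. The call of Nlrp1b depended on single libraries, as given below, while those of the other 3 held without any 1 library.

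**Figure D1:**
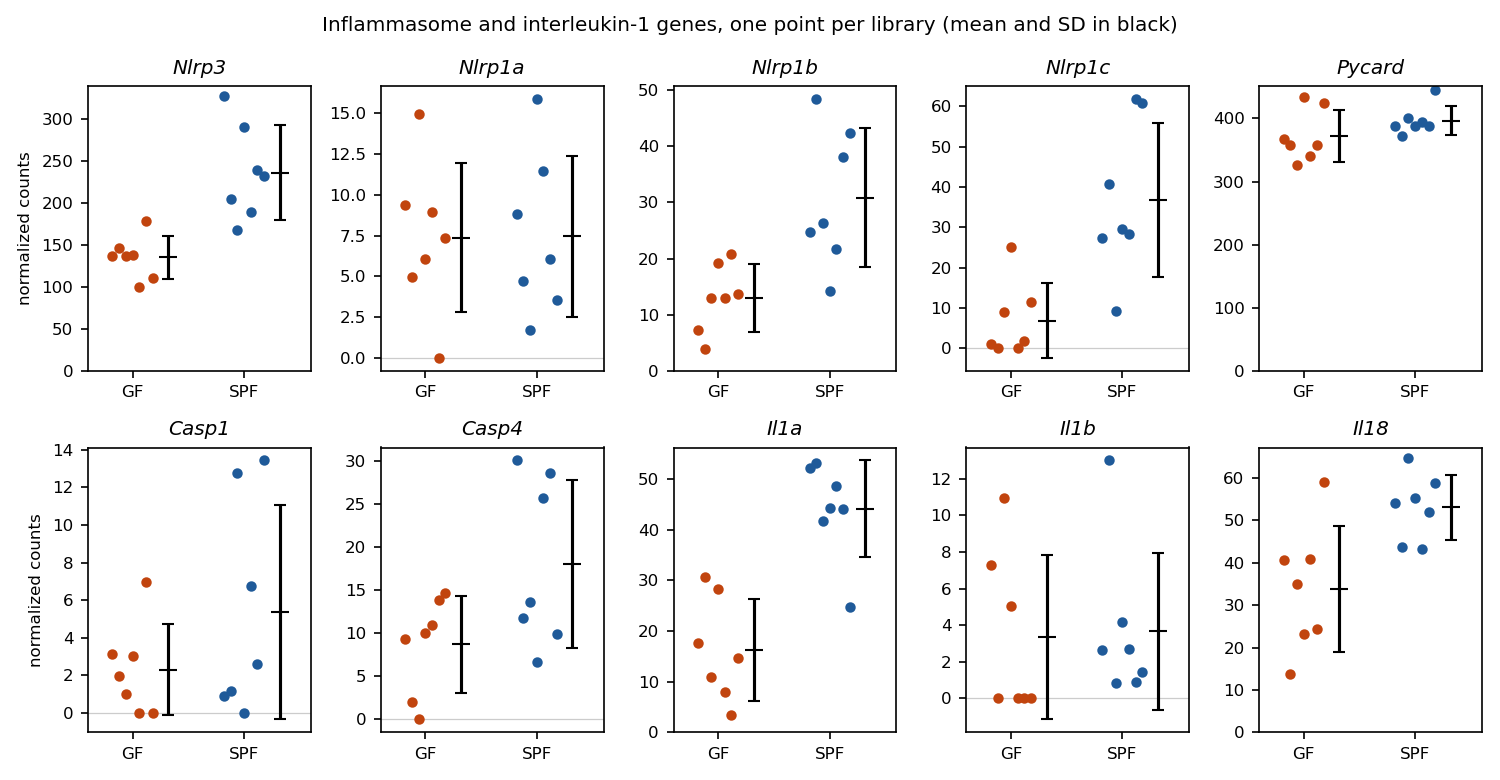
Normalized counts (y axis, linear) of each gene in the 7 GF and 7 SPF libraries, 1 point per library, with the mean and SD in black. Nlrp3, Nlrp1b, Nlrp1c and Il1a had most GF libraries below most SPF libraries, Pycard and Nlrp1a had similar group means, and Casp1 and Il1b lay near 0 in both groups.

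Nlrp3 encodes the sensor that responds to potassium efflux, extracellular ATP, crystals and other signs of damage. Its level was 99.5 at the lowest, 137 at the median and 179 at the highest in GF libraries, against 168, 232 and 328 in SPF libraries, which is 100 to 148 reads in GF and 173 to 371 reads in SPF. All GF libraries but GF 6 lay below every SPF library, and GF 6 lay above SPF 3 alone. The mean was 135 ± 25.6 in GF and 236 ± 56.6 in SPF (SD, n = 7 each), so that Nlrp3 was 42.7% lower in GF. Nlrp3 fell by 0.78 ± 0.15 on the log2 scale (SE, limma adjusted p = 0.00273), and its adjusted p stayed between 0.00104 and 0.0302 in the 29 other settings. Its nearest neighbours with tested values, Zkscan17 and 4933439C10Rik, gave no call, at 0.37 and 0.29 on the log2 scale (limma adjusted p = 0.354 and 0.654). RefSeq annotates 2 starts for Nlrp3 on GRCm38.p6. The promoter of the downstream start (chr11:59542436-59542735, plus strand) is shown because a match to the NF-kB letters lies beside the start. Capitals mark GGG and CC around 5 unspecified bases, searched on both strands and here read on the opposite strand, beginning 8 bases before the start.
Nlrp3 promoter: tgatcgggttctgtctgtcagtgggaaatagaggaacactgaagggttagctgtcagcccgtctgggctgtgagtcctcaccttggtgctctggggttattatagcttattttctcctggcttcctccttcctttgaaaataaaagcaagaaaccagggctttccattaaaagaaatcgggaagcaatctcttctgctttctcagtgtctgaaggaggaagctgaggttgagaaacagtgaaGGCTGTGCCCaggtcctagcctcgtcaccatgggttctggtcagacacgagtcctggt
These loose letters were also found in the promoter of the upstream start. Among the other members, the promoters of Casp1 and Casp4 hold them, as near as 14 bases before a start of Casp4. Casp4 was not called and Casp1 was not tested. A match was found in 50.8% of all 32851 promoters of the same length, so about as many promoters hold one as lack one.

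The Nlrp1 copies are neighbouring genes on chromosome 11, in the order Nlrp1a, Nlrp1b and Nlrp1c. In mice Nlrp1b is known as the sensor of anthrax lethal toxin, whose protease cuts it, with strain differences in response, and RefSeq lists Nlrp1c as a pseudogene, Nlrp1c-ps. Nlrp1c was 0, 1.74 and 25.2 normalized counts at the lowest, median and highest in GF libraries, against 9.35, 29.7 and 61.9 in SPF libraries. GF 2 and GF 5 held 0 reads, which allows up to 2.97 and 2.99 normalized counts at 3 reads, and GF 1 and GF 6 held 1 read each, while GF 3, GF 4 and GF 7 held 9, 25 and 11 reads. Only GF 4 and GF 7 lay above any SPF library, and that library was SPF 3. Nlrp1c fell by 2.80 ± 0.59 on the log2 scale (SE, limma adjusted p = 0.00447). The size of that difference rests on the pseudocount, at -1.73 with a pseudocount of 7.22 and -3.68 with 0.289 in its place. The group means were 6.93 ± 9.29 in GF and 36.9 ± 19.1 in SPF (SD, n = 7 each). Some Nlrp1c values were fractions of a read, at 11 of 14 whole, and the annotated extents of Nlrp1b and Nlrp1c overlap.

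Nlrp1b was 3.95, 12.95 and 20.8 at the lowest, median and highest in GF libraries, against 14.2, 26.3 and 48.5 in SPF libraries. All GF libraries lay below the SPF median, and 6 SPF libraries lay above every GF library, with SPF 4 the exception. Nlrp1b fell by 1.20 ± 0.36 on the log2 scale (SE, limma adjusted p = 0.0404). Of 28 other settings, 16 gave no call, with adjusted p between 0.0507 and 0.112, including the fits without any of GF 1, 2, 3 and 5 and SPF 1, 2, 3, 5, 6 and 7. Nlrp1a, the copy whose activation kills blood cell precursors in mice, was 0, 7.36 and 14.9 in GF libraries at the lowest, median and highest, against 1.70, 6.06 and 15.9 in SPF libraries. The groups spread over the same range, and the log2 difference was -0.08 ± 0.55 (SE, limma adjusted p = 0.952), with -1.19 to 1.03 at 2 SE either side. Its sign turned in 4 other settings, at 0.22 to 0.55. That interval is too wide to tell Nlrp1a from Nlrp1b: the ratio of Nlrp1b to Nlrp1a within a library differed by -1.12 on the log2 scale (exact permutation p = 0.152, 0.203 adjusted over 4 ratios), and without GF 6, where Nlrp1a was at 0, by -1.63 (adjusted p = 0.0478).

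Since reads may be shared among the copies, their values were also summed. The sum was 8.90, 22.6 and 50.4 normalized counts at the lowest, median and highest in GF libraries, against 37.4, 61.5 and 107 in SPF libraries. SPF 3, the lowest SPF library, stood below GF 4 and just above GF 3, and the other 6 SPF libraries stood above every GF library. The summed level was lower in GF by a log2 difference of -1.49 (exact permutation p = 0.00117), and p was 0.00117 to 0.00350 without any 1 library. The mean sum was 27.3 in GF and 75.2 in SPF, within which the pseudogene Nlrp1c averaged 6.93 and 36.9. The fall of the sum therefore repeats in part that of Nlrp1c. A sum without Nlrp1c was not tested. On the GRCm38 transcripts, 0 of 951 windows of 50 bases in the last 1000 bases of Nlrp1b were found in Nlrp1a or in Nlrp1c, 12 of 951 in the end of Nlrp1c were found in Nlrp1a, and 53 of 951 in the end of Nlrp1a were found in Nlrp1b. In this reference the end of Nlrp1b therefore shares no stretch of that length with either other copy, and the matches of the Nlrp1a end lie elsewhere in Nlrp1b. Other genes nearby gave no call, with Derl2 at 0.22 and Mis12 at -0.19 on the log2 scale (limma adjusted p = 0.500 and 0.813). Both lie on the Nlrp1a side. On the Nlrp1c side, 4933427D14Rik stood at -0.41 (limma adjusted p = 0.678). Wscd1, on that side too, was too low to test, at 4.48 ± 4.11 in GF and 8.16 ± 7.02 in SPF (SD, n = 7 each). The correlation of Nlrp1b with Nlrp1c within groups did not pass (Pearson r = 0.54, p = 0.0704; Spearman rho = 0.51, p = 0.0882; n = 14, permutation within groups, adjusted 0.816 and 0.823 over 28 pairs of members). Without the 2 libraries farthest from the median, GF 2 and SPF 4, r was 0.47. Nlrp1a with Nlrp1b gave a Pearson r of -0.45 (p = 0.137, permutation within groups, adjusted 0.816). For Nlrp1a with Nlrp1c, r was 0.20 (p = 0.606, permutation within groups, adjusted 0.884).

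**Figure D2:**
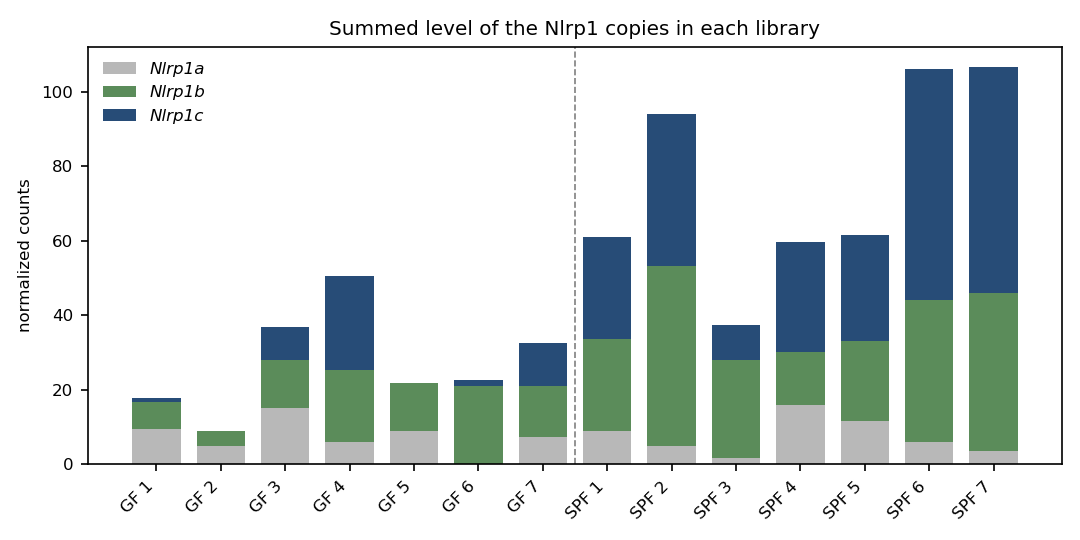
Stacked normalized counts (y axis) of Nlrp1a, Nlrp1b and Nlrp1c in each library, GF left of the dashed line and SPF right of it. The whole bar is the summed level, 8.90 to 50.4 in GF and 37.4 to 107 in SPF. Nlrp1a makes up 0 to 55.6% of the bar in GF and 3.31 to 26.6% in SPF.

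The promoters of Nlrp1a (chr11:71144655-71144954, minus strand) and of the upstream start of Nlrp1b (chr11:71230684-71230983, minus strand) are shown because these neighbouring genes share most of their promoter letters. They come from RefSeq on GRCm38.p6 and run from 250 bases before to 50 bases after the start. Capitals mark GAGGAAGT, letters bound by PU.1, the master transcription factor of macrophages, searched on both strands.
Nlrp1a promoter: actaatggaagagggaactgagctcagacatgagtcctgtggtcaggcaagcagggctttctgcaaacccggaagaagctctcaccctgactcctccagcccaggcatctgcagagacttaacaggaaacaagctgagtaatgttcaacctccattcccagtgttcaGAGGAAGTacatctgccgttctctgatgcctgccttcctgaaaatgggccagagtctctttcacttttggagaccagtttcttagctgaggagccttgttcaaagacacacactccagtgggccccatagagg
Nlrp1b promoter: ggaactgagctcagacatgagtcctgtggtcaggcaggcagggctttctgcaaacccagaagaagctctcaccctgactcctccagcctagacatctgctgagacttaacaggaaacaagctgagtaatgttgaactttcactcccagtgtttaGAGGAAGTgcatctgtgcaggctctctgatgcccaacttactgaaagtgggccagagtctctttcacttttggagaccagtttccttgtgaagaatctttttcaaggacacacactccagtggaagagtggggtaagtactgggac
Aligned end to end, 255 of 314 positions, or 81.2%, were identical, and both hold the PU.1 letters, at 83 bases before the start in Nlrp1a and 96 in Nlrp1b. Those letters were found in 3.20% of all 32851 promoters. Among the other members, the promoter of Pycard holds them 44 bases before its start. The downstream start of Nlrp1b does not hold these letters, and its alignment with Nlrp1a gave 51.2% identical positions, close to the 52.4% of the Il1a and Il1b promoters.

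Pycard encodes ASC, the adaptor that links sensors to caspase-1. Its level was 327, 358 and 434 normalized counts at the lowest, median and highest in GF libraries, against 373, 389 and 445 in SPF libraries. Only 5 of its 14 values were whole numbers of reads, and the effect of this on the comparison was not tested. In GF, 5 libraries lay below every SPF library, while GF 4 and GF 7 lay above all SPF libraries but SPF 7. The log2 difference was -0.10 ± 0.10 (SE, limma adjusted p = 0.611), with -0.29 to 0.10 at 2 SE either side, and it turned to 0.09 with trends in length and GC content removed. Nlrp3 was lower relative to Pycard within the same libraries, by a log2 difference of -0.69 in GF minus SPF (exact permutation p = 0.00350, 0.0140 adjusted over 4 ratios), so Nlrp3 fell by more than its adaptor gene. Without any 1 library the adjusted p was 0.00699 to 0.0256.

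Casp4, in mice also called caspase-11, encodes the caspase that binds lipopolysaccharide in the cytosol and cuts gasdermin D. It was 0, 10.1 and 14.7 normalized counts at the lowest, median and highest in GF libraries, against 6.69, 13.6 and 30.1 in SPF libraries. SPF 1, SPF 5 and SPF 6 stood above every GF library, and the other 4 SPF libraries lay among the GF libraries. The log2 difference was -1.14 ± 0.52 (SE), which did not pass (limma adjusted p = 0.198). Casp1, the gene of the central caspase of the inflammasome, lay next to Casp4 on chromosome 9 and was sparse, at 0 to 4 reads per GF library and 0 to 19 reads per SPF library. Its mean was 2.30 ± 2.42 in GF and 5.37 ± 5.71 in SPF (SD, n = 7 each, exact permutation p = 0.328), with a log2 difference of -0.62 ± 0.57 (SE, limma adjusted p = 0.638 with no filter on low values, a setting in which 1.54% of genes fell and 1.83% rose). The ratio of Casp4 to Casp1 differed by -0.51 on the log2 scale (exact permutation p = 0.534, also 0.534 when adjusted). SPF 3, SPF 5 and SPF 7 held 15, 10 and 19 reads of Casp1, and the other SPF libraries at most 3.

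Il1a encodes interleukin-1 alpha, and had the largest log2 difference of the 3 cytokine genes. It was 3.47, 14.7 and 30.7 normalized counts at the lowest, median and highest in GF libraries, against 24.7, 44.3 and 53.2 in SPF libraries. Only GF 2 and GF 4 lay above any SPF library, and that library was SPF 7. The mean was 16.2 ± 10.1 in GF and 44.1 ± 9.57 in SPF (SD, n = 7 each), 63.2% lower in GF. Il1a fell by 1.57 ± 0.35 on the log2 scale (SE, limma adjusted p = 0.00666). Its adjusted p was 0.00354 to 0.0166 without any 1 library and 0.0542 with depth as a covariate, the single setting of 29 in which the call was lost.

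Il1b encodes interleukin-1 beta, the main cytokine released by inflammasomes, and lies beside Il1a on chromosome 2. It was at 0 in 4 of 7 GF libraries, where 3 reads would be 2.97 to 5.21 normalized counts, and held 5 to 11 reads in the other 3, against 1 to 11 reads in SPF libraries. The mean was 3.33 ± 4.49 in GF and 3.67 ± 4.29 in SPF (SD, n = 7 each, exact permutation p = 0.536), and the log2 difference was -0.40 ± 0.58 (SE, limma adjusted p = 0.756 with no filter on low values). The highest SPF library was SPF 2, at 13.01, and its neutrophil markers summed to 1.18, the worth of 1 read. The highest GF library was GF 3, at 10.96, with a neutrophil sum of 0. The largest neutrophil sum, 10.1 in GF 4, went with an Il1b value of 5.04. The ratio of Il1a to Il1b differed by -1.17 on the log2 scale (exact permutation p = 0.0915, adjusted 0.183), so Il1a was not shown to differ from Il1b in its response, although the ratio passed without GF 2 (-1.54, adjusted p = 0.0373) and with 5 times the pseudocount (-1.15, adjusted p = 0.0105). The nearest tested genes gave no call, with Slc20a1 at 0.23 on one side and Sirpa at 0.15 on the other (limma adjusted p = 0.839 and 0.382, log2 scale). In RefSeq, Il1a overlaps Gm14023, which has no values here, and Il1b overlaps Il1bos, which has. Both are long noncoding RNA genes, and the use of strand in counting is not stated. Their part in the Il1a and Il1b values was not tested.

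The promoters of Il1a (chr2:129309923-129310222, minus strand) and Il1b (chr2:129371090-129371389, minus strand) are shown because the genes are neighbouring paralogs. Capitals mark TGANTCA, letters bound by AP-1, on either strand.
Il1a promoter: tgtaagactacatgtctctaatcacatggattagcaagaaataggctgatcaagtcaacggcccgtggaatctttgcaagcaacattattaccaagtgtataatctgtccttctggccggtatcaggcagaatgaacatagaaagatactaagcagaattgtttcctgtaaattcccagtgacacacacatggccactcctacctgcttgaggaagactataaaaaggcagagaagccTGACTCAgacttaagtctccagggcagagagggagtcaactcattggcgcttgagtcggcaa
Il1b promoter: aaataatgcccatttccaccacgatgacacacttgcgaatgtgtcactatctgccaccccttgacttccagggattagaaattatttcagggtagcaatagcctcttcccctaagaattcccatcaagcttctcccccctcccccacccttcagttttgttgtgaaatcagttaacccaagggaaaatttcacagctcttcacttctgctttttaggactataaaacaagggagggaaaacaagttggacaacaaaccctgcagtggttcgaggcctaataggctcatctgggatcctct
The AP-1 letters begin 12 bases before the start of Il1a and were found in 7.81% of all promoters. The Il1b window holds none of the 4 motifs searched, which says only that these letters are not in these 300 bases. The interferon letters, GAAA repeated after 2 unspecified bases, found in 3.44% of all promoters, were in none of the 12 promoters of the 9 members with one.

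Il18 encodes interleukin-18, which is made as a precursor without priming in many macrophages. It was 13.8, 34.9 and 58.9 normalized counts at the lowest, median and highest in GF libraries, against 43.2, 53.9 and 64.6 in SPF libraries. All GF libraries but GF 7 lay below every SPF library, and GF 7 lay above all SPF libraries but SPF 3. The log2 difference was -0.74 ± 0.26 (SE, -1.25 to -0.22 at 2 SE either side), which did not pass over all genes (limma adjusted p = 0.0832; exact permutation p = 0.0117 for this gene alone). It passed without GF 7 (adjusted p = 0.0353) and with equal totals (adjusted p = 0.0471). The gene overlaps Bco2 and Tex12 in RefSeq, and the use of strand in counting is not stated. Bco2 had a log2 difference of 0.07 (limma adjusted p = 0.864). Tex12, with too low a mean to test, was at 2.84 ± 3.17 in GF and 9.36 ± 4.73 in SPF (SD, n = 7 each), and its part in the Il18 values was not tested.

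**Figure D3:**
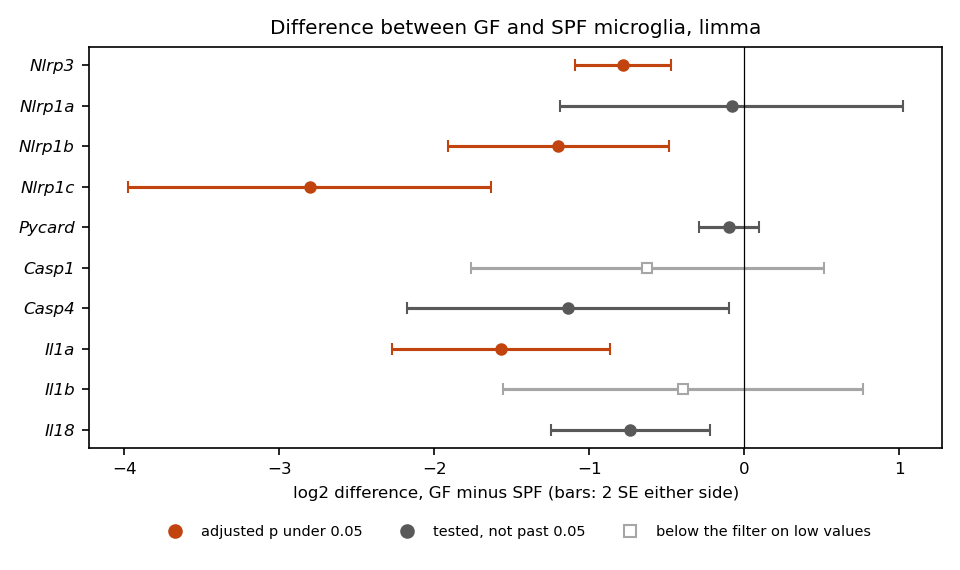
Log2 difference, GF minus SPF (x axis), of each gene with bars of 2 SE either side. Nlrp3, Nlrp1b, Nlrp1c and Il1a, in red, passed an adjusted p of 0.05, and open squares mark Casp1 and Il1b, which were below the filter on low values.

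**Figure D4:**
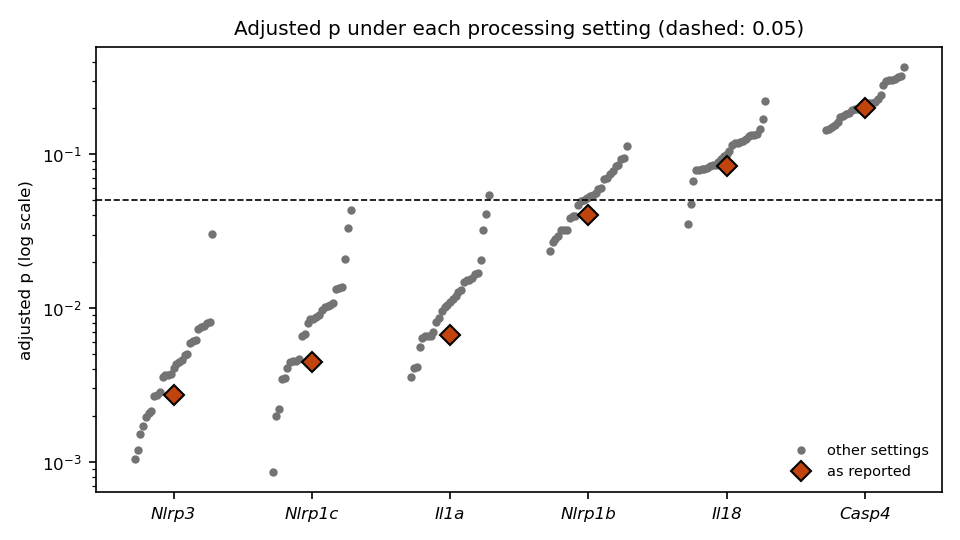
Adjusted p (y axis, log scale) of 6 genes under the reported setting and each other processing setting, with the threshold dashed. Nlrp3 and Nlrp1c stayed below 0.05 throughout, Il1a crossed it once, Nlrp1b crossed it in 16 of 28 settings, and Casp4 stayed above it.

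Around these genes, the other parts of the pathway moved both ways or did not pass. Of 20 other sensors, 6 were tested, and 0 rose and 0 fell (limma), against 3.68% and 3.07% of all genes tested. Of the 6, 1 had an unadjusted limma p under 0.05, against 1935 of 8822 over all genes. The gene with the smallest p was Nod1, a sensor of bacterial cell wall fragments, at 13.8 ± 8.42 normalized counts in GF and 22.8 ± 5.55 in SPF (SD, n = 7 each, log2 difference -0.85, limma adjusted p = 0.180). Aim2, the sensor of cytosolic DNA, was at 67.5 ± 16.2 in GF and 67.9 ± 17.2 in SPF (SD, n = 7 each), or -0.01 ± 0.20 on the log2 scale (SE, limma adjusted p = 0.988). Nlrc4, the adaptor-like sensor of bacterial flagellin with the Naip proteins, was below the filter, with at most 7.06 in GF and 7.07 in SPF.

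Of 33 regulators and executors of inflammasomes, 25 were tested, 5 rose and 2 fell, with a median log2 difference of 0.11. Over all genes tested, 3.68% rose and 3.07% fell. An unadjusted limma p under 0.05 was found for 10 of the 25, against 1935 of 8822 over all genes. Casp8, an initiator caspase of apoptosis that can also process interleukin-1 beta, was 65.3, 168 and 266 at the lowest, median and highest in GF libraries, against 248, 291 and 393 in SPF libraries. All GF libraries but GF 1 lay below every SPF library, and Casp8 fell by 1.03 ± 0.23 on the log2 scale (SE, limma adjusted p = 0.00704), a call lost with no trend in the spread (adjusted p = 0.0664). Trim30a, reported in mice to restrain Nlrp3, fell by 0.92 (limma adjusted p = 0.0305), but not in 9 of 29 other settings, including the fits without any of GF 3 and 5 and SPF 2, 6 and 7. Txnip, which encodes a thioredoxin-binding protein linked to Nlrp3, rose to 670 ± 87.6 in GF, against 508 ± 54.9 in SPF (SD, n = 7 each), or 0.40 ± 0.10 on the log2 scale (SE, limma adjusted p = 0.0157), a call kept in 24 of 29 other settings. Ninj1, whose product ruptures the plasma membrane of dying cells, rose to 211 ± 49.9 in GF, against 136 ± 25.4 in SPF (SD, n = 7 each, log2 difference 0.61, limma adjusted p = 0.0158).

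Cyba, a subunit gene of the NADPH oxidase, rose by 0.40 on the log2 scale (limma adjusted p = 0.00499), and Mark4, a kinase gene reported to place Nlrp3 in the cell, rose by 0.75 (limma adjusted p = 0.0369). Mark4 did not pass in 14 of 29 other settings, including the fits without any of GF 1, 2, 6 and 7 and SPF 5, 6 and 7. Kcnk6, a potassium channel gene named here after its values were seen, rose by 0.45 (limma adjusted p = 0.0489), but not in 21 of 29 other settings, including the fits without any of GF 3, 5, 6 and 7 and SPF 1, 2, 3, 4, 6 and 7. With trends in length and GC content removed, Cyba and Ninj1 did not pass, at 0.10 and 0.33 (limma adjusted p = 0.531 and 0.279). Gsdmd, the gasdermin D gene, stood at 344 ± 50.2 in GF and 427 ± 115 in SPF (SD, n = 7 each, log2 difference -0.29 ± 0.14 SE, limma adjusted p = 0.221). Nek7, which encodes the kinase that bridges Nlrp3 subunits, had a log2 difference of 0.11 ± 0.16, and P2rx7, the gene of the ATP-gated channel that triggers Nlrp3, of 0.09 ± 0.14 (SE, limma adjusted p = 0.741 and 0.742). P2rx7 stood at -0.10 when its rows were averaged. Gbp5, an interferon-induced GTPase gene reported to promote Nlrp3 assembly and named here after its values were seen, was below the filter, at 0 to 6.05 in GF and 3.40 to 14.2 in SPF (log2 difference -1.88, limma adjusted p = 0.0345 with no filter).

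**Figure D5:**
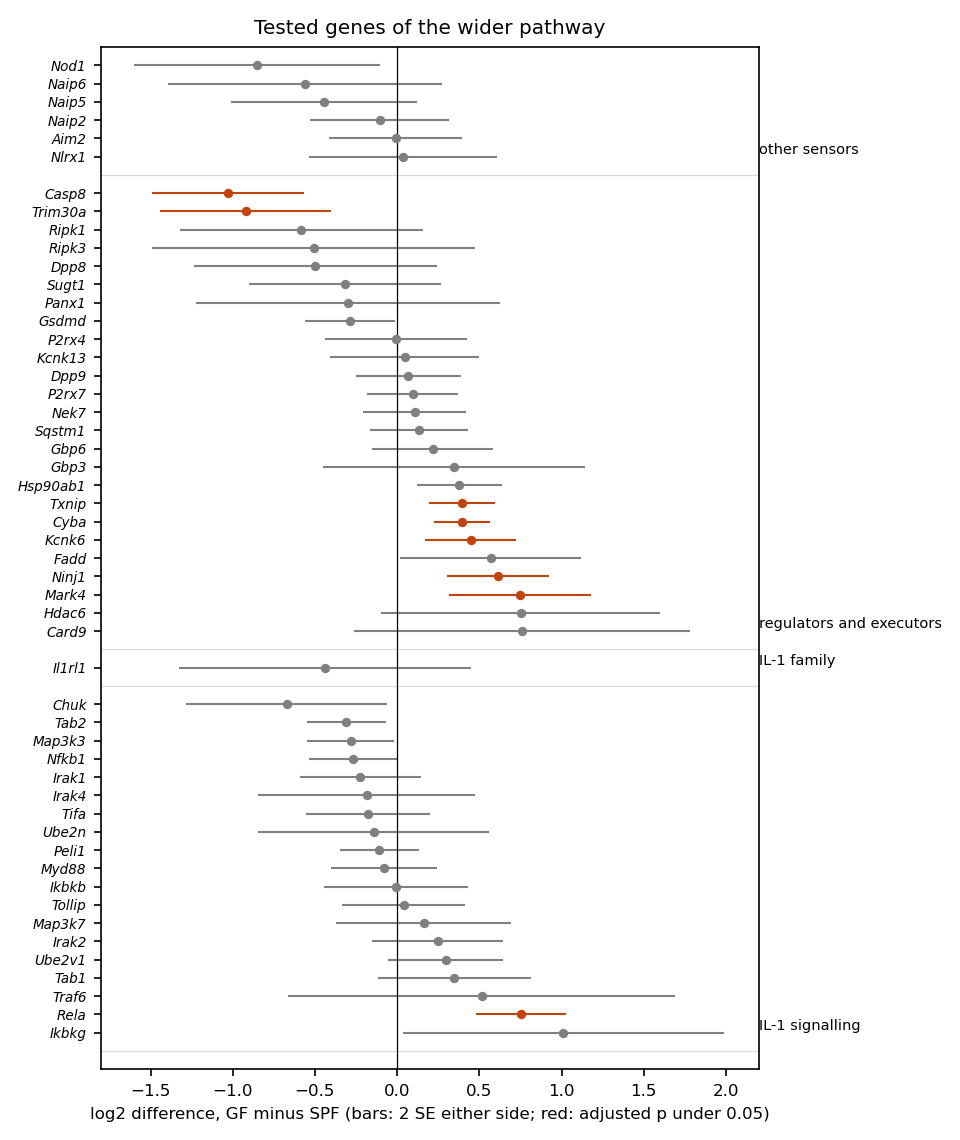
Log2 difference, GF minus SPF (x axis), of the tested genes of the wider pathway, with bars of 2 SE either side and genes past an adjusted p of 0.05 in red. Casp8 and Trim30a lay lower in GF, and Txnip, Cyba, Kcnk6, Ninj1, Mark4 and Rela higher.

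Of 18 receptors, decoys and other members of the interleukin-1 family, 8 had rows here and 1 was tested, namely Il1rl1, the interleukin-33 receptor gene, with a log2 difference of -0.44 (limma adjusted p = 0.610). Il1r1, the receptor of both interleukin-1 cytokines, was at most 5.04 in GF and 2.37 in SPF, its partner Il1rap at most 3.98 in GF and 10.6 in SPF, the antagonist Il1rn at most 2.08 in GF and 2.37 in SPF, and the decoy Il18bp at most 5.04 in GF and 10.6 in SPF. Of 21 genes of interleukin-1 receptor signalling, 19 were tested, 1 rose and 0 fell, with a median log2 difference of -0.08. Among all genes tested, 3.68% rose and 3.07% fell, with a median of -0.02. An unadjusted limma p under 0.05 was found for 5 of the 19, against 1935 of 8822 over all genes. The gene that rose was Rela, the p65 subunit of NF-kB, at 215 ± 24.9 in GF and 128 ± 25.0 in SPF (SD, n = 7 each), or 0.75 ± 0.14 on the log2 scale (SE, limma adjusted p = 0.00136). Myd88, the adaptor of interleukin-1 and Toll-like receptors, had a log2 difference of -0.08 ± 0.16 (SE, limma adjusted p = 0.822).

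Genes that respond to cell isolation were measured because Nlrp3 and Il1a can be induced while cells are prepared. Of 16, 11 were tested, and 0 rose and 0 fell (limma), against 3.68% and 3.07% of all genes tested. An unadjusted limma p under 0.05 was found for 3, against 1935 of 8822 over all genes. These 3 were Jun, Junb and Tnf, all lower in GF. The median log2 difference was -0.36, against -0.02 over all genes tested and -0.11 over those with a mean under 50. Of the 11, only Ccl3 had a positive difference, at 0.0063. The summed level of the isolation genes was 686 to 1338 normalized counts in GF and 1008 to 1254 in SPF (exact permutation p = 0.0501, 0.200 adjusted over 12 sums). The smallest p was that of Tnf, which encodes tumour necrosis factor, at 8.91 ± 3.13 in GF and 20.9 ± 9.27 in SPF (SD, n = 7 each, log2 difference -1.04, limma adjusted p = 0.0904). The part of isolation in the fall of Nlrp3 and Il1a was not tested.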

How the data were processed

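Per the submitters' processing notes, reads were aligned with TopHat to mm9, with no version. How reads were counted and scaled, and how strand, molecular tags and shared reads were handled, was not given in the sources used here. Each deposited value is a signal for 1 RefSeq transcript, at least 0, and is termed a normalized count. Per library, 84.5% to 86.7% of positive values fell within 0.01 of a read of a multiple of 1 step, so the reads could not be recovered and count models were left out. Depth is the total of kept rows over the step. Limits from 3 reads cover counting error only.

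The 18487 rows gave 14217 genes. Log2 differences are GF minus SPF of the value plus 1.44, 1 millionth of the mean library total, which understates changes of low genes. The 8822 genes with a mean of at least 7.22 were tested with limma 3.58.1 (R 4.3.3; spread modelled as a trend of the mean; two-sided) and Benjamini-Hochberg adjustment over all of them. The procedure was also run on simulated counts with the same spread setting for all genes and no contaminated libraries. That run does not show how the procedure behaves on these data. Single values were compared by two-sided exact permutation over 3432 divisions, with a smallest p of 0.000583. Correlations used 100000 permutations within groups. The members, lists and tests were chosen with earlier results of these data known. Named genes are the members, up to 6 called genes per list or the one with the smallest p, and Nek7, Txnip, Gsdmd, P2rx7, Il1rn, Il1r1, Il1rap, Il18bp, Myd88, Aim2 and Nlrc4 whatever their result. Alternatives covered the pseudocount, the filter, scaling, row choice, the spread, depth, length and GC content, a replicate block and leaving out libraries. Promoters came from RefSeq GRCm38.p6 and transcript ends, length and GC content from GENCODE M21, later builds than mm9.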

Additional observations from a re-analysis of the deposited data

Results flagged for a closer look

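Among 44 groups of 7 libraries checked for a sample far from the others, 9 were marked. Chance marks about 1 in 20 where values follow a normal distribution. Several marked groups are marker sums at or near 0, for which that rate does not hold. Of the 9 marked, 3 concern members. Among SPF libraries, Pycard was highest in SPF 7, at 445 normalized counts against 400 in the next SPF library. Within the same group, Il1a was lowest in SPF 7, at 24.7 against 41.6, and Il1b was highest in SPF 2, at 13.01 against 4.18. Neutrophil markers summed to 1.18 in SPF 2 and 0 in the other SPF libraries. In GF 1, monocyte markers summed to 10.9 and dendritic cell markers to 28.1, against 1.01 and 4.94 in the next GF libraries. Lymphocyte markers summed to 4.98 in GF 3, against 2.08 in the next GF library. Erythroid markers summed to 3652 in GF 6, against 94.9 in the next GF library, and GF 6 was also the library of lowest depth. Astrocyte markers summed to 164 in SPF 7, against 228 in the next lowest SPF library.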

How the results depend on the processing

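The sum of the Nlrp1 copies, Nlrp3, Nlrp1c and Il1a kept their direction in every setting, and Il1a lost its call with the depth covariate alone. The count of members called lower was 2 with the filter 4 times as high, which left Nlrp1b and Nlrp1c untested, and 3 to 5 without any 1 library, with 0 called higher in each. Genes called higher and lower numbered 214 and 429 with equal totals, 160 and 161 with no trend in the spread, 186 and 187 with length and GC trends removed, and 154 and 166 without GF 1, GF 6 and SPF 2. They were 242 to 337 and 171 to 291 without any 1 library, with the lowest count of falls, 171, without SPF 7. The wider lists gave 8 calls, but 5 with quantile normalization, 1 with no trend, 4 with the depth covariate, 4 with length and GC trends removed, 5 without GF 1, GF 6 and SPF 2, and 5 to 8 without any 1 library (5 without SPF 6 or SPF 7).

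The replicate numbers did not pair the libraries: correlations of same-numbered deviations were -0.056 to 0.047. With the replicate number as a block, 286 genes rose and 241 fell, 3 members fell, Nlrp1b did not pass (adjusted p = 0.0688), and the ratio of Nlrp3 to Pycard, at -0.69, did not pass (exact permutation over sign changes, adjusted p = 0.125, where the smallest unadjusted p that 7 pairs allow is 0.0156). Ratios without any 1 library were -1.54 to -0.80 for Il1a to Il1b and -1.63 to -0.92 for Nlrp1b to Nlrp1a. The ratio of Il1a to Il1b was -1.15 with 5 times the pseudocount (adjusted p = 0.0105).

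Signs turned for genes near 0. Nlrp1a stood at 0.35 with quantile normalization, 0.55 with the depth covariate, 0.22 without GF 1, GF 6 and SPF 2, and -0.30 to 0.31 without any 1 library (0.31 without GF 6). Aim2 stood at 0.0065 with array weights, 0.23 with length and GC trends removed, 0.025 without GF 1, GF 6 and SPF 2, and -0.087 to 0.11 without any 1 library. Pycard stood at 0.086 with length and GC trends removed, Myd88 at 0.035 and Nek7 at -0.0059 with the depth covariate, and P2rx7 at -0.10 with the mean of its rows and -0.0091 without GF 1, GF 6 and SPF 2. The cause of these changes was not tested. Casp1 and Il1b held at most 19 reads in a library.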
